A study of Caenorhabditis elegans with 4 samples.

Results

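NFYA-1 binding on the X chromosome of Caenorhabditis elegans was examined in late embryos by chromatin immunoprecipitation and sequencing (ChIP-seq). The regions described are the rows of the combined peak list whose chromosome is X, 713 of 5320 intervals. The 392 X intervals of the replicate 1 list, of 2907, and the 382 of the replicate 2 list, of 3319, served to show their support. An interval counted as supported when it shared at least 1 bp with an interval of the replicate list. The series holds 2 ChIP libraries, collected with antibodies against green fluorescent protein (GFP), and 2 input libraries of unselected DNA.

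All 4 libraries came from worms of strain OP404, labelled hermaphrodite and grown at 20 °C to the late embryo stage. OP404 carries the mutation unc-119(ed3) on chromosome III and the transgene wgIs404, which holds nfya-1::TY1-GFP-3xFLA and a working unc-119(+) copy. The transgene was introduced by bombardment and the strain was outcrossed 3 times. The tagged protein was thus made in addition to the worm's own nfya-1 gene, and no strain without the tag is part of the series. The sources used here do not state how many copies of the transgene there are or where they sit. Nothing in the labels says whether the 2 ChIP libraries came from separate cultures.

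NFYA-1 is the A subunit of NF-Y, a complex of 3 proteins known for binding CCAAT boxes in promoters. The A subunit gives the complex its sequence preference, and its B and C partners fold like histones and hold the DNA around it. In C. elegans the X chromosome is treated apart from the autosomes: a dosage compensation complex lowers its transcription in hermaphrodites, and genes used in the germline are scarce on it. The autosomes are divided into gene-dense centres and repeat-rich arms, a division that is weaker on X. The nfya-1 gene itself is on X in the RefSeq gene table of assembly WBcel235. The peak lists use another build, WormBase WS180, so no interval was assigned to a gene and no sequence is shown.

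Each list gives 1 value per interval, the authors' q-value from the peak caller PeakSeq. Strength below means the authors' −log10 q, which grows with sequencing depth as well as with enrichment. It was used to rank intervals within a list and, at matched intervals, to set replicate 1 beside replicate 2. Read counts were not analysed here, so depth is unknown, and the level of a ratio between the replicates cannot be told apart from a difference in depth. The 95% interval beside a share is an exact Clopper-Pearson interval and covers counting error alone. Intervals of a list are not independent replicates. With only 2 ChIP libraries, the spread from library to library was not tested.

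NFYA-1 intervals were spread thinly and evenly over X. It held 41.2 combined intervals per Mb of the stretch from its first to its last interval, against 55.9 per Mb on the autosomes. Chromosome III, the densest, accounted for part of that distance: against I, II, IV and V, with 50.6 per Mb, the density ratio of X was 0.814 (95% interval 0.750 to 0.883, p = 3.56e-07 by a two-sided exact binomial test). The same ratio was 0.849 (0.759 to 0.947) in replicate 1 and 0.709 (0.634 to 0.790) in replicate 2. X was not the sparsest chromosome of the combined list, since V had 40.4 intervals per Mb, and in replicate 1 X had 22.6 per Mb and V 22.1. In replicate 2 X was the sparsest, at 22.1 per Mb against 25.4 on V. Among the 500 strongest combined intervals and without chromosome III, the density ratio was 0.991 and did not pass (exact binomial p = 1). That alternative was chosen after the data were seen. Against all autosomes, the ratio was 0.680 among the 1000 strongest (exact binomial p = 2.88e-05). In the stronger part of the list it was 0.662 (exact binomial p = 3.18e-13). The combined intervals of X covered 353 kb, or 2.04% of its stretch, against 2.32% on the autosomes. Length covered thus differed less than the number of intervals.

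Along X the number of intervals changed little from end to end. Over its 17 full bins of 1 Mb, X had 40.5 ± 6.80 combined intervals per bin (SD across bins), with 33 in the sparsest and 56 in the densest. On the autosomes, 80 bins had 55.95 ± 19.9, with a range of 12 to 110. The variance of the bin counts divided by their mean is about 1 when intervals fall independently at an even rate. It was 1.14 on X, against 1.72 to 5.61 on the 5 autosomes taken one at a time. In replicate 1 it was 0.728 on X against 1.08 to 7.02, and in replicate 2 it was 0.471 on X against 1.19 to 6.30. X therefore had the lowest value of the 6 chromosomes in each list, a description for which no test was run.

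**Figure D1:**
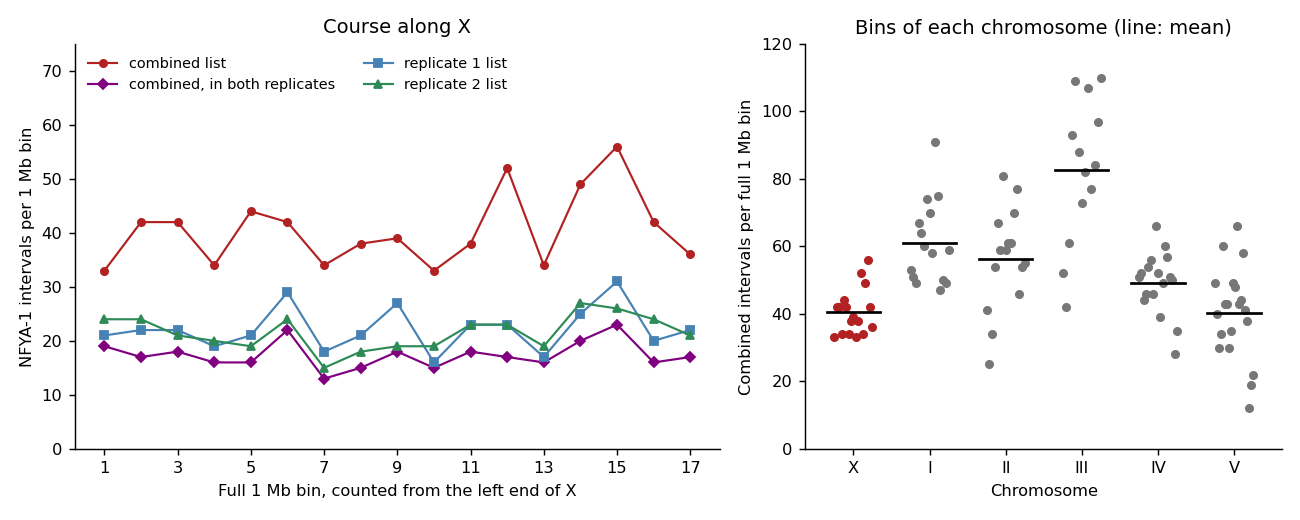
NFYA-1 intervals per full 1 Mb bin. Left, the 17 bins of X in the combined list (circles), its intervals found in both replicates (diamonds), the replicate 1 list (squares) and the replicate 2 list (triangles). Right, the combined list on X and on each autosome, 1 point per bin with the mean as a line. The bins of X lie between 33 and 56, while those of the autosomes range from 12 to 110.

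Between the first and the last interval of X, neither the outer parts nor the middle stood out in number of intervals. The empty left end, described below, lies outside this stretch. With the stretch of X divided into 3 equal parts, the left part held 239 combined intervals (33.5%, 95% interval 30.1 to 37.1), the middle 226 (31.7%, 28.3 to 35.3) and the right 248 (34.8%, 31.3 to 38.4). All 3 intervals include an equal share. Of the intervals found in both replicates, 110 lay in the left part, 92 in the middle and 105 in the right.

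The densest bin of X ran from 14000001 to 15000000, with 56 combined, 31 replicate 1 and 26 replicate 2 intervals. Next came the bin from 11000001 to 12000000, with 52 combined intervals but 23 in each replicate. Its excess lay in intervals without replicate support, since 26 of the 52 overlapped neither replicate, against a median of 14 per bin of X. The third, from 13000001 to 14000000, had 49. The sparsest bins were the first of the chromosome and that from 9000001 to 10000000, with 33 each, ahead of 3 bins that tied at 34. The first bin includes the empty stretch before 324045, where the first X interval of any list began. Its 33 intervals thus lay in only part of the bin. Across the 17 bins, the correlation of replicate 1 with replicate 2 counts was 0.590 by Spearman's rho and 0.593 by Pearson's r, a description over bins that share their libraries. Counts of intervals in both replicates and of intervals in neither had a rho of -0.14 and an r of 0.092.

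The left end of X was empty. The first X interval of any list began at 324045, whereas the first interval of each autosome began between 1391 and 51116. This stretch of 324 kb was longer than any gap between neighbouring combined intervals inside X. Whether reads could be placed there was not tested.

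Intervals on X were wider than those on the autosomes. The median width was 399 bp on X and 346 bp on the autosomes, whose single medians ran from 329.5 to 360 bp. Of the X intervals, 451 of 713 were wider than the median of the whole list (63.3%, 59.6 to 66.8), against 2209 of 4607 on the autosomes (47.9%, 46.5 to 49.4) and 50.0% of all 5320. The odds ratio was 1.87 (95% interval 1.58 to 2.21, two-sided Fisher's exact test across intervals, adjusted p = 2.01e-13 by Benjamini-Hochberg over 7 comparisons of X with the autosomes).

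Both libraries showed the same direction. The replicate 1 median was 425.5 bp on X, against 331 to 360 bp on single autosomes, and the replicate 2 median was 406.5 bp, against 302.5 to 346 bp. With the same measure, the odds ratio was 2.22 in replicate 1 and 2.54 in replicate 2. At the 309 X intervals of replicate 1 matched to a replicate 2 interval, the median width was 439 bp in replicate 1 and 436 bp in replicate 2. At 2183 matched intervals of the autosomes it was 351 bp in each.

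The extra width of X was present at every level of strength. Since stronger intervals are wider, each list was split into 5 equal classes by strength, a comparison chosen after the data were seen. In the strongest combined class, with a −log10 q of 18.7 or more, the median width was 663.5 bp on X and 509.5 bp on the autosomes, where single chromosomes ran from 476 bp on II to 576 bp on IV. In the weakest class, under 4.64, it was 306.5 bp on X and 243.5 bp on the autosomes. The odds ratio for being wider than the class median ran from 1.84 to 3.39 over the 5 combined classes. In all 15 classes of the 3 lists it passed Fisher's exact test, with an adjusted p of at most 0.0106 over the 15. X had the widest median of the 6 chromosomes in 14 of the 15 classes, and in the middle class of replicate 1 it had 359.5 bp, against 365 bp on IV.

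**Figure D2:**
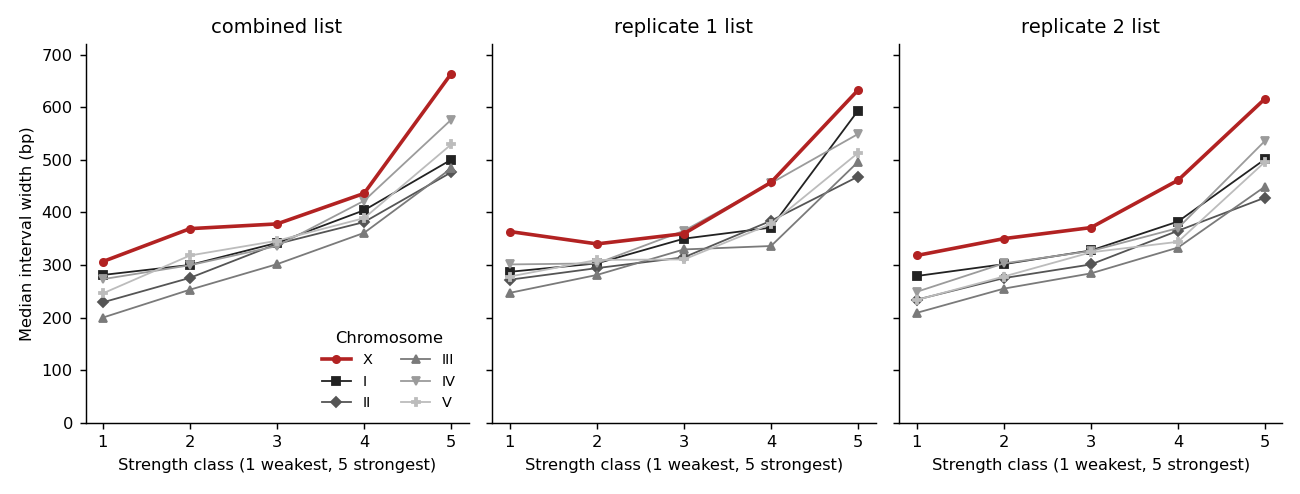
Median width in bp of NFYA-1 intervals on X (thick line, circles) and on each autosome (thin lines) in 5 classes of strength, from the weakest to the strongest class of each list by the authors' −log10 q. X lies above the 5 autosomes in 14 of the 15 classes, the exception being the middle class of replicate 1.

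The widest interval of the whole combined list was on X, and it was not among the strongest. It ran from 11931592 to 11936263, a width of 4672 bp, with a −log10 q of 13.1 that ranked 200th on X. That value was above the median of 7.38 on X and of 8.15 in the whole list. In replicate 1 it was matched by an interval from 11931640 to 11935274 with a −log10 q of 3.99, and in replicate 2 by one from 11933168 to 11936130 with 6.62. These were also the widest X intervals of their lists, at 3635 and 2963 bp.

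Its surroundings were looked at as well, after these values were seen. A stronger interval, 1006 bp wide, began 497 bp to its right and ran from 11936761 to 11937766. Its −log10 q was 42.8 in the combined list, 23.2 in replicate 1 and 26.2 in replicate 2. Further right, from 11965627 to 11967782, lay a second wide interval, of 2156 bp. It was weaker, with a −log10 q of 5.41 and no support in either replicate. It was followed after 676 bp by an interval of a single base, at 11968459. Of the 55 combined intervals over 1500 bp wide, 7 had a −log10 q under 15, and they were 2 of 11 on X and 5 of 44 on the autosomes. The upper quartile of the whole combined list was 15.5, so this limit is low only for wide intervals. Where nfya-1 and the worm DNA carried by the transgene lie in build WS180 was not used here, and whether these intervals fall in them was not tested.

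The regions of X next in width were stronger. They ran from 6090442 to 6093336 (2895 bp), from 12691473 to 12694291 (2819 bp), from 13143030 to 13145617 (2588 bp) and from 4960222 to 4962767 (2546 bp). Their −log10 q was 198.7, 43.2, 109.05 and 160.8 in that order, and each was found in both replicates.

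The share of X among the leading combined intervals did not depart clearly from its share of the whole list. Per Mb X held fewer intervals than the autosomes, with a density ratio of 0.736 in the whole list and 0.680 among the 1000 strongest. X had a ratio of 0.991 among the 500 strongest without chromosome III. It held 12 of the 50 strongest combined intervals (24.0%, 13.1 to 38.2), 71 of the 500 strongest (14.2%, 11.3 to 17.6), 125 of the 1000 strongest (12.5%, 10.5 to 14.7) and 13.4% of the whole list. All 3 of these 95% intervals include the share of the whole list. In replicate 1 X held 11 of the 50 strongest (22.0%, 11.53 to 35.96) and 13.5% of the list. In replicate 2 it also held 11, with the same interval. Its share of the replicate 2 list, 11.51%, lay just below that interval. Over the whole combined list, 325 of 713 X intervals were stronger than its median (45.6%, 41.9 to 49.3). The share was 50.7% on the autosomes and 50.0% over all intervals. The odds ratio was 0.815 (0.693 to 0.958, Fisher's exact test, adjusted p = 0.0146). By the same exact test it was 0.790 within the replicate 1 list, with an adjusted p of 0.0398. Within the replicate 2 list it was 0.954, which did not pass the exact test (adjusted p = 0.703). The call was also lost against the autosomes without chromosome III, with an odds ratio of 0.861 (Fisher's exact test, adjusted p = 0.0704). In the stronger part of the combined list the direction turned, to 1.02 (Fisher's exact test, adjusted p = 0.906).

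The 20 strongest X regions found in both replicates were the 20 strongest of X in any case. Their widths ranged from 549 to 2895 bp around a median of 1020 bp, and 10 exceeded 1000 bp. They were spread along the chromosome, with 6 in the left part, 7 in the middle and 7 in the right. Their ranks in the whole combined list ran from 5 to 120.

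The first, from 16611222 to 16613027, had a −log10 q of 209.96 in the combined list, 138.4 in replicate 1 and 107.04 in replicate 2. A single interval of 1726 bp matched it in replicate 1, while in replicate 2 it met 2 intervals, the stronger 1045 bp wide. The second, from 6090442 to 6093336, had 198.7 in the combined list, 189.7 in replicate 1 and 176.2 in replicate 2. It was the strongest X region of both replicates, ranked 6 in replicate 1 and 5 in replicate 2. The order of the leading pair thus differed between the combined list and the replicates.

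The third region, from 4960222 to 4962767, had a −log10 q of 160.8 in the combined list, 111.4 in replicate 1 and 91.2 in replicate 2. The fourth, from 4523436 to 4525487, had 158.5 in the combined list, 153.8 in replicate 1 and 127.6 in replicate 2. It was flanked at 749 and 634 bp by weak combined intervals that neither replicate held. The fifth, from 11605196 to 11606571, had 138.8 in the combined list, 60.9 in replicate 1 and 77.5 in replicate 2, and was the first of the 20 to be stronger in replicate 2.

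Regions 6 to 10 began at 2996561, 11093776, 13143030, 10567903 and 16929343, with a combined −log10 q between 97.1 and 123.8. The last of these differed most between the replicates within this group, with 53.8 in replicate 1 and 35.7 in replicate 2. The remaining 10 began at 15840907, 7068137, 13700493, 17479466, 14525413, 10765863, 8035989, 6296180, 4388767 and 4208642. They ranged from 68.8 to 95.6 in the combined list, from 38.7 to 67.8 in replicate 1 and from 34.2 to 64.8 in replicate 2. Of the 20 regions, 13 were stronger in replicate 1, as were 205 of all 309 matched intervals on X (66.3%) and 49.2% on all chromosomes.

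Regions 2 and 4 of this order stood apart in how the lists relate. Their combined −log10 q was 0.543 and 0.563 of the sum of the replicate values, while at the other 18 regions it was 0.710 to 1.097 of that sum. The sources used here do not state how the combined list was made.

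**Figure D3:**
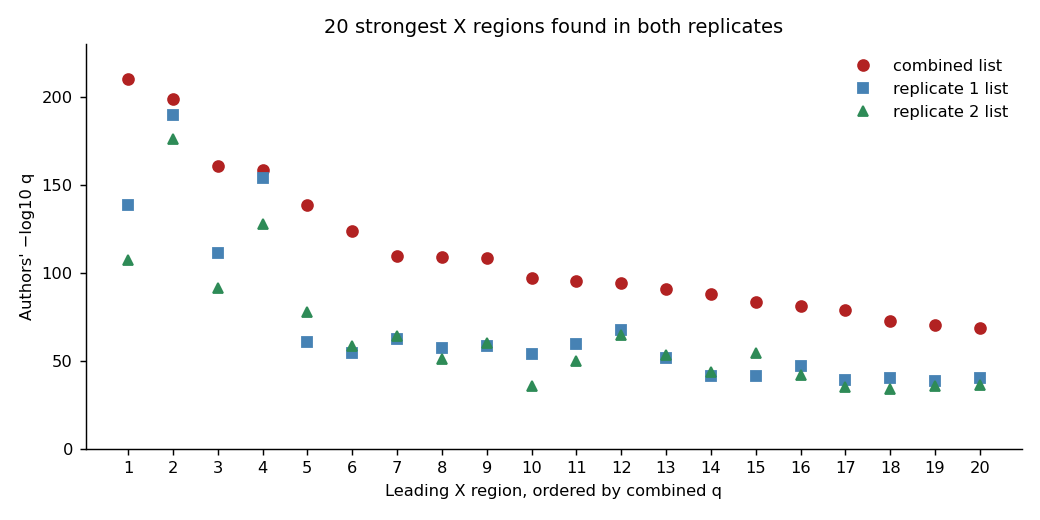
Strength of the 20 leading X regions as the authors' −log10 q, ordered by the combined q, in the combined list (circles), replicate 1 (squares) and replicate 2 (triangles). At regions 2 and 4 the replicate 1 value nearly meets the combined one, at 189.7 against 198.7 and 153.8 against 158.5.

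Close neighbours were fewer on X. The median distance from 1 combined interval to the next was 13.2 kb on X, against 6.57 to 10.2 kb on single autosomes. Fewer than 1000 bp separated 54 of 712 neighbouring pairs on X (7.58%, 5.75 to 9.78), against 511 of 4602 on the autosomes (11.1%, 10.2 to 12.05) and 10.6% overall. The odds ratio was 0.657 (0.481 to 0.883, Fisher's exact test, adjusted p = 0.00650). By the same exact test, replicate 1 gave 0.599 (16 of 391 pairs on X, adjusted p = 0.0579) and replicate 2 gave 0.391 (11 of 381, adjusted p = 0.00228). With 500 bp as the limit the odds ratio was 0.651 and missed the threshold (Fisher's exact test, adjusted p = 0.0570). Chromosome V, with 40.4 intervals per Mb against 41.2 on X, had 10.9% of its pairs under 1000 bp, and the part of density in the result was not tested. The median distance divided by the mean was 0.553 on X, inside the autosomal range of 0.416 to 0.599.

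Within the close pairs of X, the stronger member had a median −log10 q of 11.6 and the weaker 4.82. Each pair was sorted by strength first, so a difference between these medians was fixed in advance. All X intervals had a median of 7.38, with quartiles of 4.83 and 14.6. Whether strong intervals were joined to weak ones more than any others was not tested. Both replicates held both members of 8 of the 54 pairs. In 34 pairs, 1 member or both had no support in either replicate. Of all X intervals, 43.1% were found in both replicates and 36.3% in neither. Whether close pairs differ from other X intervals in support was not tested.

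Few X intervals formed longer runs. With neighbours under 1000 bp apart joined, 614 intervals stood alone, 38 runs held 2, 5 held 3 and 2 held 4. One run of 4 reached from 14557285 to 14563013, led by an interval with a −log10 q of 35.5. The other reached from 15273890 to 15278194, led by one with 63.05. In each of them 2 of the 4 intervals were found in both replicates. Among the runs of 3, that from 16928097 to 16931948 was the only one with all members in both replicates, and its values were 8.81, 97.1 and 23.8 from left to right.

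The longest stretch without a combined interval inside X was 210.4 kb, between 1627350 and 1837727. Next were 179.4 kb from 15860853 to 16040219, 156.8 kb from 12206016, 143.7 kb from 12728565 and 140.3 kb from 6410773. No replicate interval lay in any of these 5. The longest gap of a single autosome was 118 to 360 kb, so X lay within that range.

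Support in both replicates was somewhat lower on X than on the autosomes, a difference that passed only with midpoints within 200 bp. Of the X intervals, 307 of 713 overlapped both replicates (43.1%, 39.4 to 46.8), against 46.9% of 4607 on the autosomes (45.5 to 48.4) and 46.4% overall. The odds ratio of 0.855 (0.727 to 1.01) missed the threshold of Fisher's exact test (adjusted p = 0.0579), and chromosome I, at 41.1%, was below X. With support defined by midpoints within 200 bp, the share was lower on X and passed (odds ratio 0.834, Fisher's exact test, adjusted p = 0.0285). With 50% reciprocal overlap the odds ratio was 0.886 and did not pass (Fisher's exact test, adjusted p = 0.143). Without chromosome III it was 0.918 and in the stronger part of each list 0.923. Neither passed Fisher's exact test (adjusted p = 0.321 and 0.515). By 1 bp overlap, a further 77 X intervals overlapped replicate 1 alone, 70 replicate 2 alone and 259 neither. These were 10.8, 9.82 and 36.3% of X intervals, against 7.39, 14.1 and 32.1% of all intervals. Median strength on X was 16.4 for intervals in both, 6.50 in each single-replicate class and 4.38 for those in neither. Median widths were 503 bp for X intervals in both replicates and 325 bp for those in neither, against 414 and 275 bp on the autosomes.

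The replicates differed in what they held alone on X. Of the X intervals of replicate 1, 83 of 392 had no replicate 2 partner (21.2%, 17.2 to 25.6), against 13.2% of 2515 on the autosomes and 14.3% overall. The odds ratio was 1.77 (1.33 to 2.32, Fisher's exact test, adjusted p = 0.000159). On single autosomes the share ran from 10.4 to 16.5%.

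For replicate 2 the direction was the opposite. Of its X intervals, 73 of 382 had no replicate 1 partner (19.1%, 15.3 to 23.4), against 25.7% of 2937 on the autosomes and 25.0% overall. The odds ratio was 0.682 (0.514 to 0.895, Fisher's exact test, adjusted p = 0.00650), and single autosomes ran from 24.2 to 29.6%. With the stronger part of each list alone, neither comparison passed the same exact test: the odds ratio was 1.39 for replicate 1 (adjusted p = 0.144) and 0.846 for replicate 2 (adjusted p = 0.410). Sequencing depth is unknown, so an interval found in 1 list cannot be said to be absent from the other.

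The intervals held by 1 replicate were weak. In replicate 1 their median −log10 q on X was 4.22, against 8.14 for X intervals with a partner, and their median width was 388 against 439 bp. In replicate 2 the medians were 4.42 against 7.85, and 328 against 436 bp. The strongest 5 in replicate 1 alone began at 2553442, 5763844, 16796658, 8723711 and 1450410, with −log10 q values from 8.03 down to 6.37. The strongest 5 in replicate 2 alone began at 10377591, 15849271, 15173470, 10900778 and 10963618, from 8.54 down to 6.64. All 10 were in the combined list, as were 78 of the 83 and 71 of the 73. Over all chromosomes, 398 of 415 intervals of replicate 1 alone and 760 of 829 of replicate 2 alone were in it.

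At shared intervals, X was stronger in replicate 1. Each replicate 1 interval was matched to the strongest replicate 2 interval it overlapped. Of 309 matched intervals on X, 205 were stronger in replicate 1 (66.3%, 60.8 to 71.6), against 1022 of 2183 on the autosomes (46.8%, 44.7 to 48.9) and 49.2% overall. The odds ratio was 2.24 (1.73 to 2.91, Fisher's exact test, adjusted p = 4.31e-10). The median log2 ratio of −log10 q, replicate 1 over replicate 2, was 0.16 on X (quartiles -0.15 and 0.41), against medians of -0.10 to 0.02 on single autosomes. These values compare 2 libraries, and the test is of the difference between X and the autosomes within that pair.

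The shift ran along nearly the whole of X and through all strengths. The median ratio was above 0 in 16 of its 17 full bins, against 33 of 80 bins on the autosomes. The exception was the bin from 14000001 to 15000000, also the densest, where the median was -0.16 and 39.1% of 23 matched intervals were stronger in replicate 1. Without that bin the odds ratio for X was 2.47. With the matched intervals divided into 3 equal groups by strength, 62.9% of 116 X intervals were stronger in replicate 1 in the weakest group, 62.7% of 83 in the middle and 72.7% of 110 in the strongest. On the autosomes the shares were 47.4, 41.1 and 52.1%.

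**Figure D4:**
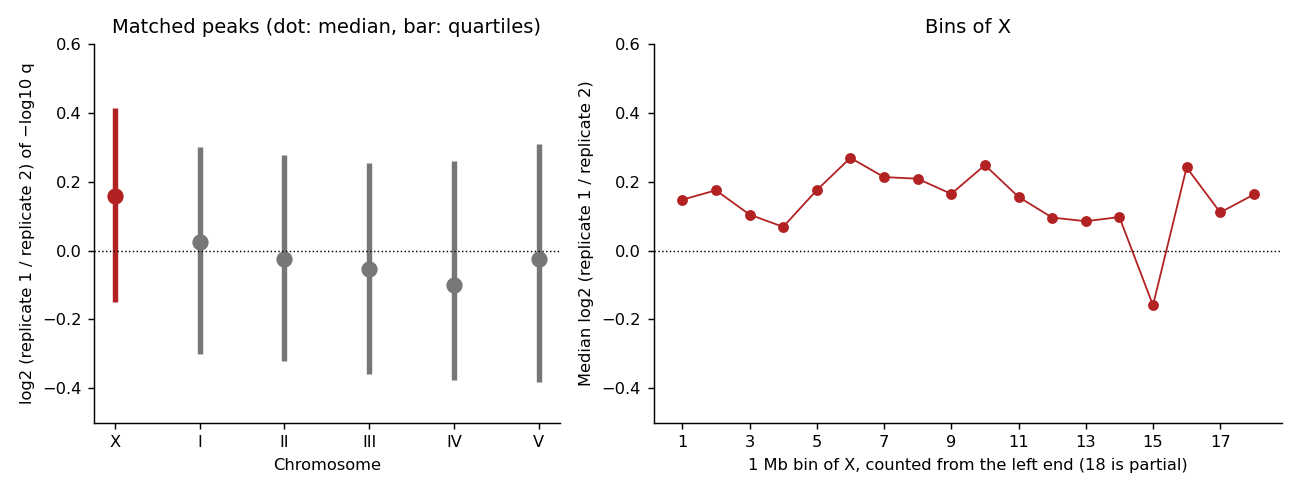
Log2 ratio of the authors' −log10 q, replicate 1 over replicate 2, at matched NFYA-1 intervals. Left, median (dot) and quartiles (bar) on X and on each autosome. Right, the median in each 1 Mb bin of X, where bin 15 is below 0 and the other bins, the partial last one included, are above it. The median of X is 0.16, against -0.10 to 0.02 on the autosomes.

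Position differed little between the replicates on X. The midpoints of matched intervals lay a median of 28 bp apart on X and 25 bp apart on the autosomes, and 96.1% on X and 96.7% on the autosomes were within 200 bp. Across the 309 pairs, Spearman's rho between replicate 1 and replicate 2 strength was 0.817 on X, and it was 0.821 across the 2183 pairs of the autosomes, both given as descriptions across intervals.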

How the data were processed

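Binding of GFP-tagged NFYA-1 in late embryos was measured in 2 ChIP libraries, with 2 input libraries whose values were not analysed here. The 3 deposited peak lists hold 1 q-value per interval, that is a p-value adjusted for the many regions tested. Per the file headers, they use build WormBase WS180, and the source column names PeakSeq. The sources used here do not state the PeakSeq version, the aligner, the threshold, the use of the inputs or how the combined list came about.

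Strength is −log10 of the deposited q-value. The combined list was set against each replicate list by overlap of at least 1 bp. The stretch of a chromosome ran from its first to its last interval over the 3 lists, and bins were assigned by interval midpoint. X was compared with autosomes I to V by 7 two-sided Fisher's exact tests, with Benjamini-Hochberg adjustment over the 7, and by an exact binomial test of density. Alternatives covered single replicate lists, the overlap rule, stricter thresholds, cut-offs on gap and width, and autosomes without III. By rule, the text names the 20 leading regions, the 5 widest, the 5 strongest in each replicate alone, the 5 longest gaps, the 3 densest and sparsest bins and the longest runs. Among runs of 3, 1 was named after its values were seen. The members, lists and tests were chosen with earlier results of these data known. The functions were checked on simulated lists. Tests used SciPy 1.17.1, tables pandas 2.3.3 with NumPy 2.4.6, and figures matplotlib 3.10.9, under Python 3.11.15.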

Additional observations from a re-analysis of the deposited data

Results flagged for a closer look

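The contrast of replicate 1 with replicate 2 differed between X and the autosomes in 3 measures, each by a test of the difference itself across intervals. The odds ratio, X over autosomes, was 2.24 for a matched interval being stronger in replicate 1. It was 1.77 for a replicate 1 interval having no replicate 2 partner, and 0.682 for a replicate 2 interval having no replicate 1 partner. The first measure used matched intervals and the other 2 unmatched ones, but all come from the same pair of libraries. With 2 libraries, which of them departs from the other on X cannot be told apart.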

How the results depend on the processing

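Of 45 alternatives for 8 comparisons of X with the autosomes, 36 changed neither the direction nor the call. The alternatives by strength class, for intervals in both replicates, for the 500 strongest and without 1 bin of X, 9 in all, were chosen after seeing the data. Width and the replicate ratio kept their calls under each alternative run. Density of X kept its call except among the 500 strongest intervals without chromosome III, where the ratio was 0.991 (exact binomial p = 1) and fewer intervals entered. Support in both replicates passed only with midpoints within 200 bp (odds ratio 0.834). In the stronger part of each list, intervals in replicate 1 alone (1.39) and in replicate 2 alone (0.846) no longer passed, and the share of strong intervals turned to 1.02. That share no longer passed without chromosome III (0.861), and in single replicate lists it was 0.790 to 0.954, of which replicate 2 did not pass. Close pairs ranged from 0.391 to 0.599 in single replicate lists, of which replicate 1 did not pass, and at 500 bp the ratio was 0.651 and did not pass. The causes of these changes were not tested. No paired analysis was possible because the files analysed here hold intervals of the ChIP libraries and no values of an input with the same replicate number. Unknown depth limits what can be said of weak intervals.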

Other observations

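A few X intervals of the replicates have no partner in the combined list. In replicate 1 they were 5 of 392 on X, against 22 of 2907 on all chromosomes. In replicate 2 they were 2 of 382 on X, against 74 of 3319 on all chromosomes. Those on X were all weak, with −log10 q values of 3.66 to 4.23 in replicate 1 and of 3.73 and 4.73 in replicate 2. None of these X intervals was shared between the replicates.

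Some combined intervals of X were very narrow. Besides the single base at 11968459, they included one of 12 bp from 6576345 and one of 16 bp from 11297614. None of the 3 overlapped a replicate interval. The autosomes had such intervals too, since the narrowest combined interval was 1 bp wide on IV and V and 7 bp wide on I.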
